A study of Xenopus laevis with 46 samples.

Results

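The genes described here are the ADMP and bone morphogenetic protein (BMP) ligands expressed in early Xenopus laevis embryos. They were taken as the rows of the RNA-seq tables named admp, or matched by the submitters to human BMP2, BMP4 or BMP7, with at least 1 RPKM (reads scaled to transcript length and to the reads mapped in the library) in at least 2 libraries of a stage. At stage 10.5, the early gastrula, 10 of 43658 rows met the name or match part of the rule and 9 of them passed the level. At stage 9, the blastula, the same 9 rows passed out of 37005. They were admp.S, admp.L, admp2.L, bmp2.L, bmp2.S, bmp4.L, bmp4.S and a pair of BMP7-matched rows with no gene name, Xelaev18018155m and Xelaev18020685m. The tenth row, admp2.S, reached no more than 0.328 RPKM at stage 10.5 and 0.259 RPKM at stage 9. All 9 rows were above 1 RPKM in every control library of both stages, so none passed only through a treated group. Because Xenopus laevis is an allotetraploid, most genes have a long-chromosome (.L) and a short-chromosome (.S) copy, and reads of near-identical copies can be split unevenly between them. A change in 1 copy is therefore less certain than a change in both.

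BMPs are secreted ligands of the TGF-beta superfamily that bind paired serine/threonine kinase receptors and signal through Smad1, Smad5 and Smad9 with Smad4. In the Xenopus gastrula, BMP4 and BMP7 promote ventral fates, and the dorsal Spemann organizer secretes the antagonists Chordin and Noggin, which bind the ligands outside the cell. ADMP (anti-dorsalizing morphogenetic protein) is a BMP-type ligand made in the organizer itself, where its transcription is repressed by BMP signalling, so that dorsal and ventral centres hold opposing pools of ligand. ADMP2 is a related ligand that is required for blood and heart formation in Xenopus.

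The study measured polyadenylated RNA in 46 libraries of Nasco-strain embryos. At stage 10.5 there were 5 libraries of dorsal explants and 5 of ventral explants, made by bisecting embryos at stage 8 and culturing each side on. Whole embryos of that stage comprised 3 β-catenin morpholino (bCatMO), 2 lithium chloride (LiCl), 2 siamois mRNA (Sia), 3 Wnt8 mRNA, 3 Cerberus mRNA (Cer) and 6 control libraries. At stage 9 there were 2 bCatMO, 2 LiCl, 2 Sia, 3 Wnt8, 3 Cer and 5 control libraries, all of whole embryos. The morpholino, which blocks translation of the Wnt effector β-catenin, and the mRNAs were injected between the 2-cell and 4-cell stages, with 100 pg of sia mRNA placed in the marginal zone. LiCl, which stabilises β-catenin by inhibiting its kinase GSK3, was given at the 32-cell stage. Siamois is a homeobox activator downstream of β-catenin, Wnt8 is a Wnt ligand, and Cerberus is a secreted inhibitor of Nodal, Wnt and BMP ligands whose mRNA the labels call xCer L, with the L not explained. The labels tie each treated library to a control library of the same batch. They do not say how many embryos made a library or whether replicates came from separate clutches, so each p-value speaks only to the scatter of these libraries, which could be technical. The first Wnt8 and Cer libraries of stage 10.5 are called stage 10 in 1 label field and stage 10.5 in another. LiCl library 1 of stage 10.5 is likewise headed stage 10 in its column of values, with stage 10.5 in its title.

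Reads in genes ranged between 24.5 and 45 M per library at stage 10.5 and between 27.9 and 58.5 M at stage 9. The supplied or targeted genes were checked first. The siamois row, Xelaev18019203m, stood at 637.5 to 659.9 RPKM in Sia embryos, against 16.1 to 22.3 RPKM in same-batch controls at stage 10.5, and cer1.S stood at 4247.0 to 5762.3 RPKM in Cer embryos, against 59.2 to 112.4 RPKM in controls. The other copy, cer1.L, was lower in Cer embryos of that stage, at 0.0646 to 0.512 RPKM, against 8.63 to 28.9 RPKM in controls. At stage 9 the siamois row was at 605.7 to 613.9 RPKM in Sia embryos, against 10.1 to 15.9 RPKM in controls. There cer1.S was at 4874.3 to 6622.5 RPKM in Cer embryos, against 3.86 to 10.6 RPKM in controls. In the libraries labelled Wnt8, by contrast, wnt8a.L was 26.4 to 55.9 RPKM, against 65.7 to 102.2 RPKM in controls at stage 10.5, and 12.7 to 23.6 RPKM, against 6.81 to 27 RPKM in controls at stage 9. No excess of wnt8a RNA marks those libraries, and every direction below that rests on them rests on their label. Of the β-catenin rows at stage 10.5, Xelaev18033202m was at 306.1 to 334.9 RPKM in bCatMO embryos, against 318.8 to 345.8 RPKM in controls, and Xelaev18031149m at 190.3 to 252.9 RPKM in bCatMO embryos, against 285.8 to 368.8 RPKM in controls. The second was also lower at stage 9, at 193.8 to 208.4 RPKM in bCatMO embryos, against 224.3 to 245.6 RPKM in controls. A morpholino of this kind acts on translation, so RNA levels do not measure the knockdown.

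In control embryos of stage 10.5, the BMP7-matched row Xelaev18018155m was the most abundant of the 9 rows at 269.4 ± 81.8 RPKM (SD, n = 6). It was followed by admp.S at 29.3 ± 7.52, admp2.L at 23.8 ± 7.64, bmp4.S at 17.8 ± 6.18 and admp.L at 15.9 ± 2.9 RPKM. The ranges of these 4 rows overlapped from each to the next. Lower still were bmp4.L at 9.7 ± 2.65, Xelaev18020685m at 8.57 ± 2.35, bmp2.S at 5.7 ± 0.938 and bmp2.L at 3.51 ± 0.344 RPKM, and among neighbours in this lower order only bmp2.S and bmp2.L did not overlap. In the separately made stage 9 table, Xelaev18018155m again came first at 107.4 ± 26.5 RPKM (SD, n = 5). All the other rows of that stage overlapped with their neighbours in the order: bmp2.S had 17.7 ± 1.58, admp.L 15.6 ± 4.54, admp.S 14.7 ± 5.5, Xelaev18020685m 12.9 ± 3.17, bmp4.S 8.97 ± 1.98, bmp2.L 8.51 ± 1.77, admp2.L 7.38 ± 4.11 and bmp4.L 4.17 ± 1.14 RPKM. Levels were not tested between stages.

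**Figure D1:**
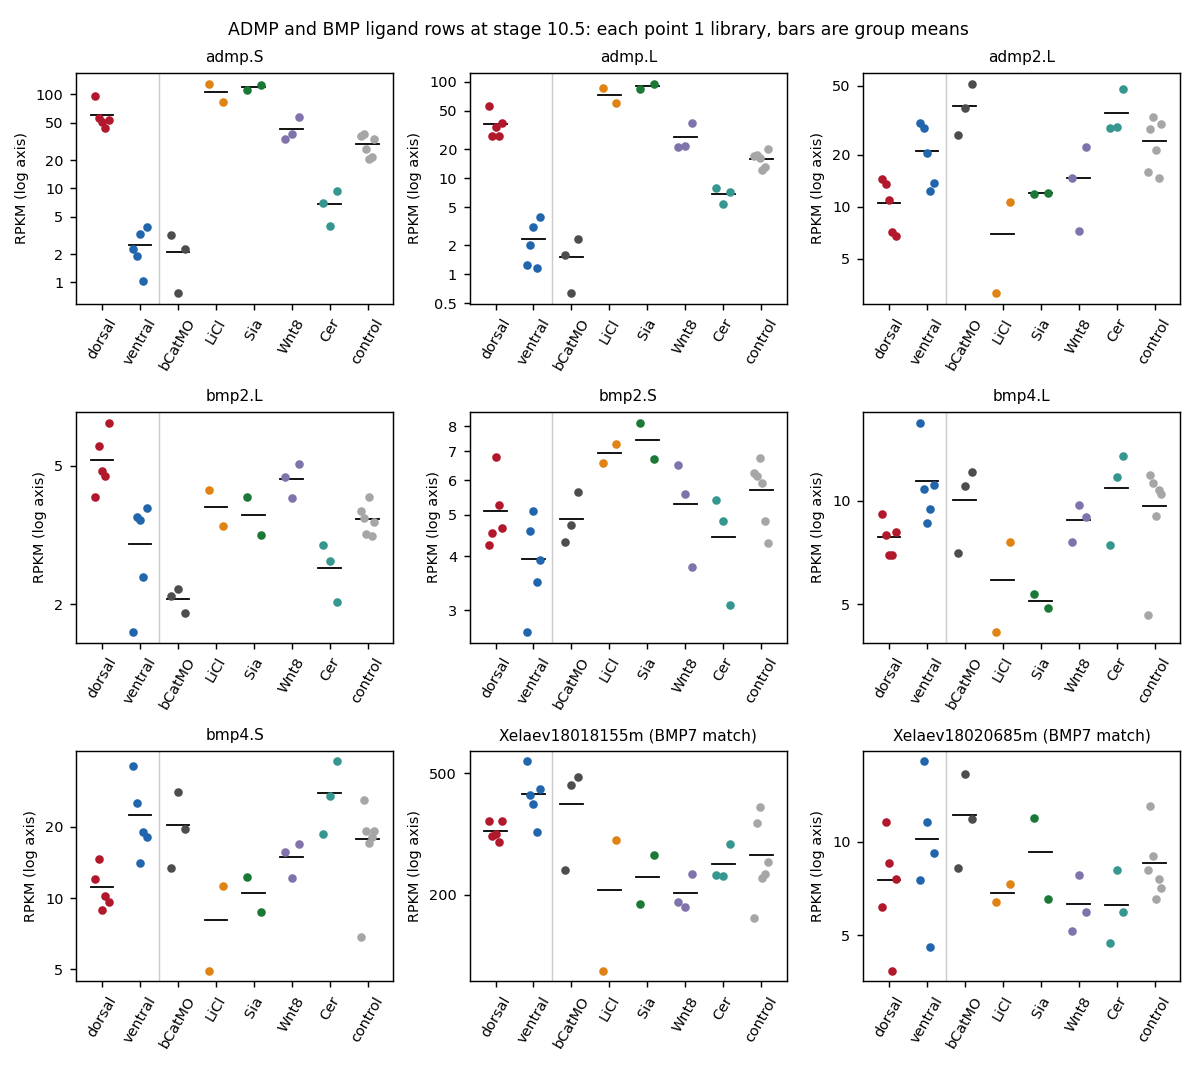
Level of each of the 9 ligand rows in every stage 10.5 library, in RPKM on a log axis, with 1 point per library and a bar at each group mean. Dorsal explants stand left of ventral explants, and the treated whole-embryo groups left of the controls. For admp.S the dorsal explants lie between 43.4 and 97.2 RPKM and the ventral explants between 1.02 and 3.9 RPKM, while Xelaev18018155m is at 112.3 RPKM or more in every library.

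Dorsal and ventral explants of the bisected embryos differed most in the 2 admp copies, with smaller differences in the other ligand rows. The organizer ligand admp.S was read at 97.2, 56.1, 50.2, 43.4 and 53 RPKM in dorsal explants 1 to 5, against 2.24, 1.92, 3.28, 1.02 and 3.9 RPKM in ventral explants 1 to 5. The lowest dorsal library was thus more than 10 times the highest ventral one. On the log2(RPKM + 0.5) scale used for all fold changes here, which understates changes of low rows, admp.S was higher in dorsal explants by 4.38 ± 0.30 (SE; limma adjusted p = 7.6e-06). These are bulk libraries, in which fewer cells of a type and less RNA per cell cannot be told apart. Its copy admp.L was at 56.2, 27.4, 34, 27.1 and 37.2 RPKM in dorsal explants, against 1.25, 2.01, 3.13, 1.18 and 3.96 RPKM in ventral explants. The groups again did not overlap, with a log2 difference of 3.77 ± 0.30 (limma adjusted p = 3.4e-05). Both copies made up the 2 of 9 ligand rows called higher in dorsal explants, against 0.547% of all 18448 rows tested, and 0 of 9 were called lower, against 0.13%; 7 of 9 had an unadjusted limma p under 0.05, as did 520 of the 18448 rows.

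The second ADMP ligand went the other way within pairs. The row admp2.L was at 14.5, 13.5, 10.9, 7.13 and 6.79 RPKM in dorsal explants, against 30.7, 28.6, 20.4, 12.3 and 13.6 RPKM in ventral explants of the same numbers. It was lower dorsally in 5 of 5 pairs, but the groups overlapped because the level also varied between pairs. The log2 difference was −0.94 ± 0.30 with an adjusted p of 0.56 in the unpaired limma fit. Same-numbered explants deviated together across all rows, and once the pair entered as a block the standard error was 0.07 and the limma adjusted p 0.00067.

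Of the BMP genes, bmp4.S stood at 12, 14.7, 8.95, 10.1 and 9.64 RPKM in dorsal explants, against 36, 25.3, 14.1, 19 and 18.2 RPKM in ventral explants. It was lower dorsally in 5 of 5 pairs, by 0.94 on the log2 scale (SE 0.24; limma adjusted p = 0.18, and 0.011 with the pair as a block). Its copy bmp4.L averaged 7.83 ± 0.914 RPKM in dorsal explants and 11.4 ± 3.26 RPKM in ventral explants (SD, n = 5 each), also lower in 5 of 5 pairs, with a log2 difference of −0.48 (limma adjusted p = 1 without and 0.0498 with the block). In contrast, bmp2.L was higher dorsally in all pairs, at 4.07, 5.71, 4.82, 4.66 and 6.66 RPKM in dorsal explants, against 1.67, 3.56, 3.49, 2.4 and 3.79 RPKM in ventral explants. Its groups did not overlap, and its log2 difference of 0.73 had an adjusted p of 0.44 without the block and 0.014 with it. The block thus brought the called ligand rows to 3 higher, against 1.7% of all rows, and 3 lower, against 0.585%. The other copy bmp2.S and both BMP7-matched rows were not called in either fit, with blocked adjusted p of 0.29 for bmp2.S, 0.072 for Xelaev18018155m and 0.1 for Xelaev18020685m. Both BMP7-matched rows were nevertheless lower dorsally in 5 of 5 pairs. Their log2 differences were −0.38 for Xelaev18018155m and −0.36 for Xelaev18020685m (SE 0.08 each with the block). The difference for bmp2.S was 0.34, with 4 of 5 pairs higher dorsally.

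**Figure D2:**
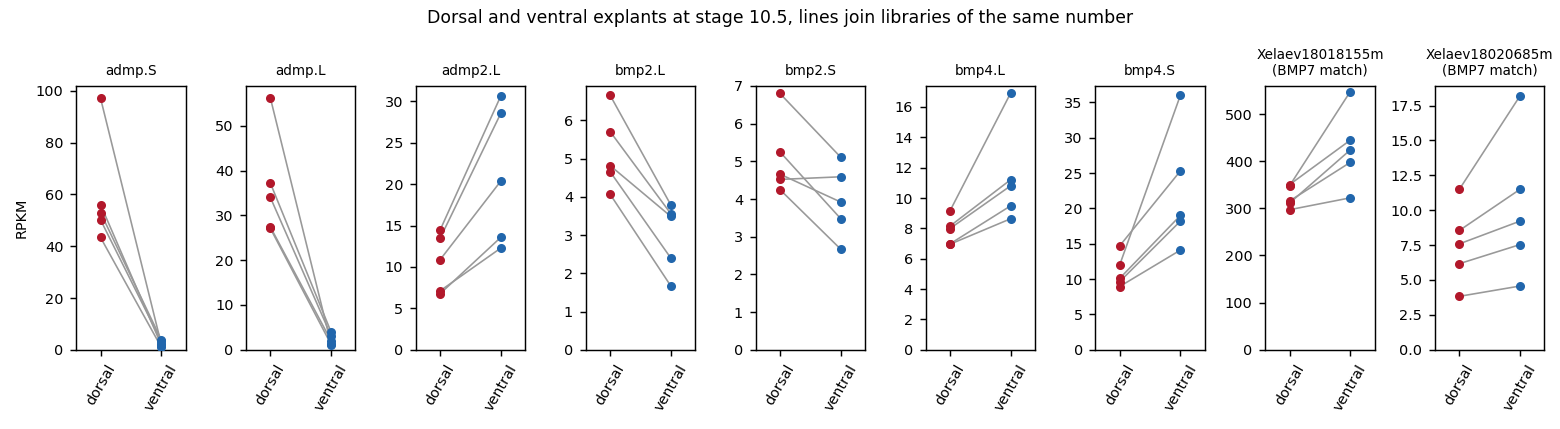
Level of each ligand row in RPKM, from 0, in the 5 dorsal explants (left) and 5 ventral explants (right) of stage 10.5, with a line joining explants of the same number. The lines for admp.S and admp.L run steeply down to the ventral side. The 5 lines for admp2.L, bmp4.S, bmp4.L and each BMP7-matched row all run up to it.

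The organizer marker list (chrd, gsc, nog, otx2 and frzb rows) was called higher dorsally in 11 of 11 rows tested, and its summed level was 768.5 to 1334.4 RPKM in dorsal explants, against 53.5 to 88.7 RPKM in ventral explants. The ventral list (szl, bambi and wnt8a rows, with no ventx row matched) summed to 98 to 124.9 RPKM in dorsal explants and 294.4 to 873.7 RPKM in ventral explants. The labelled explants thus carried their own markers. The endoderm list also differed, at 590.8 to 932.0 RPKM in dorsal explants and 262.6 to 586.1 RPKM in ventral explants, with 3 of 12 rows called higher dorsally. Epidermal rows were called lower dorsally in 3 of 14, with overlapping sums, and mesoderm rows higher in 1 of 11. Of all rows, 0.547% were called higher and 0.13% lower. The part of tissue make-up in the ligand differences was not tested.

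Little ADMP RNA was left in embryos depleted of β-catenin. At stage 10.5 admp.S was at 3.21, 0.765 and 2.27 RPKM in bCatMO embryos 1 to 3, against 36.5, 37.7 and 25.9 RPKM in their same-batch controls. It fell by 3.83 on the log2 scale (SE 0.26; limma adjusted p = 3.6e-06). The other copy admp.L was at 1.6, 0.638 and 2.35 RPKM in bCatMO embryos, against 16.9, 17.2 and 16.1 RPKM in controls, and it fell by 3.18 (SE 0.24; adjusted p = 7.9e-06). The bCatMO and control ranges lay far apart for both copies. The same was already seen at stage 9, where admp.S was at 0.634 and 0.969 RPKM in bCatMO embryos, against 18.2 and 9.56 RPKM in controls (−3.41 ± 0.32; adjusted p = 0.0002). At that stage admp.L was at 0.844 and 2.19 RPKM in bCatMO embryos, against 18.5 and 10.8 RPKM in controls (−2.95 ± 0.39; adjusted p = 0.0033), and without control 4 its adjusted p was 0.11.

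The BMP rows moved little next to ADMP when β-catenin was depleted. The ligand bmp2.L was at 2.12, 2.21 and 1.89 RPKM in bCatMO embryos, against 3.71, 3.54 and 3.18 RPKM in stage 10.5 controls, with no overlap, and it fell by 0.63 (SE 0.11; adjusted p = 0.0045). The abundant BMP7-matched row Xelaev18018155m was at 241.4, 458.3 and 487.6 RPKM in bCatMO embryos, against 167.6, 343.6 and 388.7 RPKM in controls. It was higher in 3 of 3 batches although the groups overlapped, by 0.42 ± 0.08 (adjusted p = 0.01), and the adjusted p was 0.067 without bCatMO library 2 and 0.071 without control 3. Above controls in each batch, but not called, was admp2.L, at 25.8, 37.3 and 51.4 RPKM in bCatMO embryos, against 15.9, 28.2 and 32.9 RPKM in controls (0.57 ± 0.17; adjusted p = 0.068). Voom (adjusted p = 0.025) and a fit on the compared libraries alone (adjusted p = 0.03) did call it. Below controls in each batch, and without overlap, was bmp2.S, at 4.32, 4.73 and 5.63 RPKM in bCatMO embryos, against 6.24, 6.15 and 6.77 RPKM in controls (−0.36 ± 0.10; adjusted p = 0.0536, 0.0465 without bCatMO library 3 and 0.038 without control 6). The bmp4 copies were not called, at 0.35 ± 0.18 for bmp4.S (adjusted p = 0.31) and 0.18 ± 0.13 for bmp4.L (adjusted p = 0.45). In all, 1 of 9 ligand rows was called higher at stage 10.5, against 1.98% of all 18834 rows tested, and 3 of 9 lower, against 5.17%. At stage 9 the count was 0 higher, against 0.183% of 18530 rows, and 2 lower, against 0.513%, those 2 being the ADMP copies. The stage difference of the bCatMO effect was called for 0 of 9 rows, against 0.175% of the 17746 rows tested at both; the value for bmp2.L was −0.59 ± 0.15 (adjusted p = 0.21). Organizer markers were called lower in 11 of 11 rows at stage 10.5, with sums of 82.8 to 113.1 RPKM in bCatMO embryos, against 403.1 to 553.9 RPKM in the 6 controls, and in 7 of 11 rows at stage 9. Ventral markers were called higher in 3 of 6 rows at stage 10.5, with sums of 308.3 to 447.2 RPKM in bCatMO embryos, against 126.6 to 375.6 RPKM in the 6 controls, epidermal markers were higher in 4 of 14 rows, and endoderm markers lower in 5 of 12. The epidermal and endoderm sums of bCatMO embryos overlapped with those of the 6 controls. Their part in the ligand differences was not tested.

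LiCl and siamois mRNA both gave embryos with more ADMP and less ADMP2 at stage 10.5. Because these groups, and bCatMO, were set against overlapping sets of the same controls, their results are given side by side and not as independent repeats. With LiCl, admp.S was at 129.9 and 82.4 RPKM in treated embryos, against 36.5 and 25.9 RPKM in controls, and rose by 1.47 ± 0.30 (limma adjusted p = 0.0085). That call was lost without any 1 of the 4 libraries compared, its adjusted p being 0.1 without LiCl library 1, 0.0537 without LiCl library 2, 0.059 without control 1 and 0.053 without control 3. The copy admp.L was at 86.3 and 60 RPKM in LiCl embryos, against 16.9 and 16.1 RPKM in controls (1.93 ± 0.28; adjusted p = 0.0015). Opposite to both, admp2.L was at 3.16 and 10.7 RPKM in LiCl embryos, against 15.9 and 32.9 RPKM in controls, with no overlap between the groups, and fell by 1.88 (SE 0.20; adjusted p = 0.00033). The row Xelaev18018155m was at 112.3 and 303.4 RPKM in LiCl embryos, against 167.6 and 388.7 RPKM in controls, lower within each batch while the groups overlapped. It fell by 0.50 on the log2 scale (SE 0.10; adjusted p = 0.0064), with an adjusted p of 0.12 without LiCl library 1.

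The bmp4 copies were lower in both LiCl batches without a call. For bmp4.S the levels were 4.93 and 11.2 RPKM in LiCl embryos, against 6.86 and 19.2 RPKM in controls (−0.66 ± 0.21; adjusted p = 0.061), and for bmp4.L the difference was −0.41 ± 0.15 (adjusted p = 0.089). Without control 1, whose bmp4 levels were the lowest of the 6 controls, the adjusted p was 0.037 for bmp4.S and 0.031 for bmp4.L, and with voom it was 0.0481 for bmp4.S and 0.0466 for bmp4.L. At stage 10.5 the LiCl count was 2 of 9 ligand rows higher, against 3.8% of all rows, and 2 lower, against 10.4%. The background split depends on scaling: 715 rows were called higher and 1953 lower with RPKM as deposited, and 1472 higher and 1341 lower after median-of-ratios size factors, and 4 ligand rows were called under either. At stage 9 admp2.L was at 1.18 and 1.54 RPKM in LiCl embryos, against 7.46 and 4.83 RPKM in controls, and fell by 1.81 (SE 0.26; adjusted p = 0.019). It was the 1 ligand row called lower, against 0.351% of rows, with 0 higher, against 0.0971%, and its adjusted p was 0.33 without control 4, 0.091 without LiCl library 1 and 0.14 without LiCl library 2. The BMP7-matched row Xelaev18018155m was at 72.6 and 43.1 RPKM in LiCl embryos of stage 9, against 116.4 and 70.2 RPKM in controls, lower in both batches but not called (−0.69 ± 0.13; adjusted p = 0.0539). The ADMP copies were above control in both stage 9 batches but not called, with 0.84 ± 0.32 for admp.S (adjusted p = 0.5) and 0.94 ± 0.39 for admp.L (adjusted p = 0.57). The stage difference of the LiCl effect was called for none of the 9 rows, against 3.29% of all rows; for admp.L it was 0.98 ± 0.48 (adjusted p = 0.28) and for admp.S 0.63 ± 0.44 (adjusted p = 0.48). A fit on the compared libraries alone did call it, at 1.15 for admp.L (adjusted p = 3.9e-06) and 0.89 for admp.S (adjusted p = 1.2e-06). That fit held 2 LiCl and 2 control libraries per stage, too few to estimate the spread well alone. Its p-values are therefore less secure than those of the main fit.

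With siamois mRNA, admp.S was at 111.1 and 127.2 RPKM in Sia embryos, against 37.7 and 25.9 RPKM in controls of stage 10.5, and rose by 2.05 ± 0.30 (limma adjusted p = 0.0014). The copy admp.L was at 83.6 and 95.6 RPKM in Sia embryos, against 17.2 and 16.1 RPKM in controls, and rose by 2.48 ± 0.28 (adjusted p = 0.00017). Both copies lay well clear of the controls in each Sia library. For admp2.L the levels were 11.9 and 12 RPKM in Sia embryos, against 28.2 and 32.9 RPKM in controls, and it fell by 1.34 (SE 0.20; adjusted p = 0.0016, and 0.077 without Sia library 2). The BMP4 copies also fell: bmp4.L was at 5.35 and 4.87 RPKM in Sia embryos, against 11.9 and 11.3 RPKM in controls (−1.01 ± 0.15; adjusted p = 0.0015, and 0.0527 without Sia library 2). The copy bmp4.S was at 12.2 and 8.75 RPKM in Sia embryos, against 25.9 and 19.2 RPKM in controls (−0.94 ± 0.21; adjusted p = 0.027). Neither copy overlapped with its controls, yet the bmp4.S call was lost without any 1 of the 4 libraries compared: its adjusted p was 0.15 without Sia library 1, 0.25 without Sia library 2, 0.13 without control 2 and 0.15 without control 3. The BMP7-matched row Xelaev18018155m was at 186.5 and 270.9 RPKM in Sia embryos, against 343.6 and 388.7 RPKM in controls, and fell by 0.70 (SE 0.10; adjusted p = 0.00089). The bmp2 copies differed from controls by 0.08 ± 0.12 for bmp2.L and 0.15 ± 0.12 for bmp2.S (adjusted p = 0.84 and 0.59).

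In Sia embryos of stage 10.5 the count was 2 of 9 ligand rows higher, against 2.34% of all rows, and 4 of 9 lower, against 1.83%. Already at stage 9, admp.S was at 93.2 and 71.1 RPKM in Sia embryos, against 18.2 and 9.56 RPKM in controls (2.58 ± 0.32; adjusted p = 0.0032, and 0.1 without control 5), and admp.L was at 96.6 and 70.6 RPKM in Sia embryos, against 18.5 and 10.8 RPKM in controls (2.50 ± 0.39; adjusted p = 0.02). The admp.L call was lost without any 1 of the 4 libraries compared, with adjusted p of 0.27 without Sia library 1, 0.084 without Sia library 2, 0.11 without control 4 and 0.33 without control 5. These were the 2 ligand rows called higher at that stage, against 0.264% of rows, and 0 were lower, against 0.0162%. The row admp2.L was at 2.5 and 4.22 RPKM in Sia embryos, against 7.46 and 4.83 RPKM in controls (−0.79 ± 0.26; adjusted p = 0.8). The stage difference of the Sia effect was called for 0 of 9 rows, against 0.355% of rows. Summed organizer markers at stage 10.5 were 1170.5 to 1234.7 RPKM in LiCl embryos and 1201.9 to 1523.6 RPKM in Sia embryos, against 403.1 to 553.9 RPKM in the 6 controls, and summed ventral markers were 36.1 to 95.1 RPKM in LiCl embryos and 59.1 to 65.9 RPKM in Sia embryos, against 126.6 to 375.6 RPKM in the 6 controls. Epidermal rows were called lower in 6 of 14 with LiCl and 9 of 14 with Sia, with sums overlapping those of controls. At stage 9 organizer sums were 43.9 to 97.5 RPKM in LiCl and 250.6 to 270.9 RPKM in Sia embryos, against 34.5 to 160.3 RPKM in controls. Of 11 organizer rows there, 0 were called higher with LiCl and 2 with Sia. Of 6 ventral rows, 2 were called lower with LiCl and 0 with Sia. Their part in the ligand differences was not tested.

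**Figure D3:**
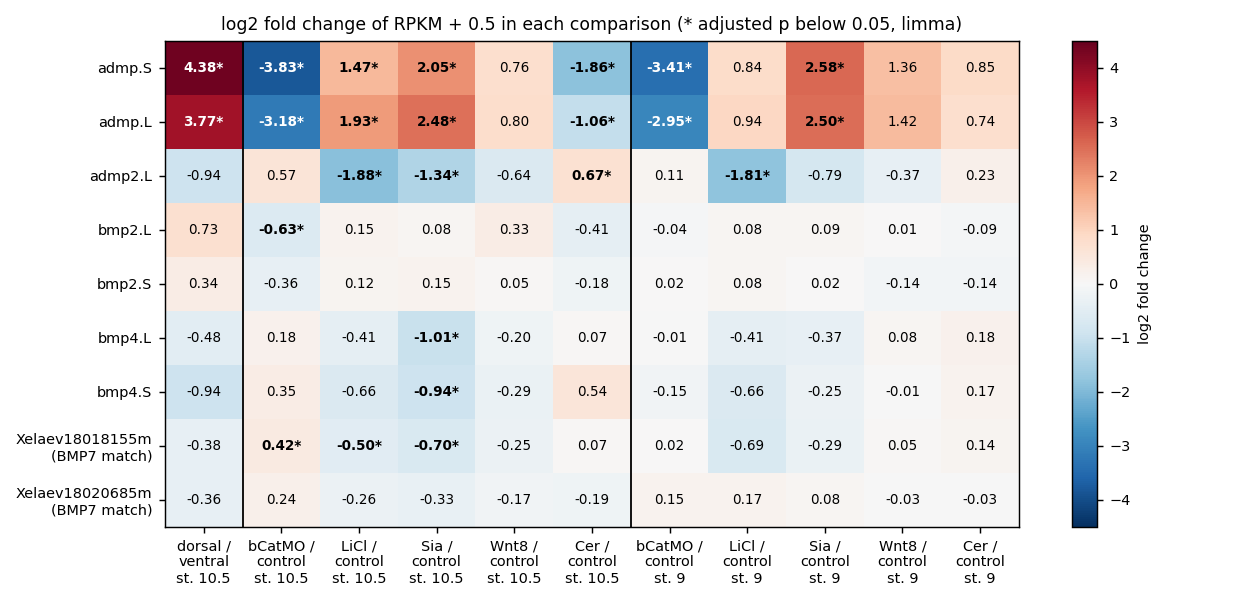
Heat map of the log2(RPKM + 0.5) difference, tested over control or dorsal over ventral, for the 9 ligand rows in 11 comparisons, with an asterisk where the limma adjusted p was under 0.05. The admp.S and admp.L rows carry the largest values of both signs, between −3.83 and 4.38. In each of the stage 10.5 comparisons admp2.L, bmp4.S, bmp4.L and Xelaev18018155m have the opposite sign to admp.S, though many of these values are not called.

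In the libraries labelled Wnt8, no ligand row was called at either stage. At stage 10.5 admp.S was at 33.9, 37.6 and 58 RPKM in these libraries, against 20.7, 21.6 and 33.3 RPKM in their controls, and admp.L at 21, 21.8 and 37.5 RPKM, against 12.1, 13.1 and 20 RPKM in controls. Both were above every control of their batches, by 0.76 ± 0.26 for admp.S (limma adjusted p = 0.51) and 0.80 ± 0.24 for admp.L (adjusted p = 0.39). The count was 0 higher, against 0.196% of all rows, and 0 lower, against 0.265%, with limma, while 5 of 9 had an unadjusted p under 0.05, as did 1271 of all 18834 rows. Beside the ADMP copies, those 5 held admp2.L (−0.64 ± 0.17, limma adjusted p = 0.25) and Xelaev18018155m (−0.25 ± 0.08, adjusted p = 0.49), each lower in 3 of 3 batches. They also held bmp2.L, higher in 3 of 3 (0.33 ± 0.11, adjusted p = 0.46). Voom on recovered reads called 84 rows higher and 85 lower over all, among them the 2 ADMP copies as higher, with adjusted p of 0.0478 for admp.S and 0.028 for admp.L. A fit on the libraries of this comparison alone called 72 rows higher and 59 lower of 17615, with those 2 among the higher. At stage 9 admp.S was at 34.2, 32 and 47 RPKM in libraries labelled Wnt8, against 17.9, 7.93 and 19.9 RPKM in controls (1.36 ± 0.26; adjusted p = 0.11), and admp.L was at 35.3, 47.5 and 47.3 RPKM, against 17.3, 10.9 and 20.6 RPKM in controls (1.42 ± 0.32; adjusted p = 0.23). The groups did not overlap. Here too limma called 0 higher, against 0.103%, and 0 lower, against 0.0054%, with 2 ligand rows among the 1574 of 18530 at an unadjusted p under 0.05. Voom called 45 rows higher and 2 lower over all, with these 2 among the higher, at 0.011 for admp.S and 0.013 for admp.L. Since wnt8a RNA was not raised in these libraries, these directions rest on their label. Marker rows also moved in them at stage 10.5: 2 of 11 organizer rows were called higher, nog.L (1.51 ± 0.12; adjusted p = 0.00076) and gsc.S (1.19 ± 0.18; adjusted p = 0.011), and the list summed to 697.3 to 1028.9 RPKM in libraries labelled Wnt8, against 403.1 to 553.9 RPKM in the 6 controls. Ventral rows were called lower in 6 of 6, with sums of 90 to 140.9 RPKM in libraries labelled Wnt8, against 126.6 to 375.6 RPKM in the 6 controls, and epidermal rows were lower in 10 of 14. The epidermal sums, at 869.2 to 1006.1 RPKM, stayed within the 740.1 to 1075.9 RPKM of the 6 controls. At stage 9 none of these rows was called, and organizer sums were 181.5 to 372.9 RPKM in libraries labelled Wnt8, against 34.5 to 160.3 RPKM in the 5 controls. The part of these tissues in the ADMP values was not tested. The stage difference of the effect was called for no ligand row, against 0.175% of rows.

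The effect of Cerberus on ADMP differed between the stage 10.5 and stage 9 libraries. Each batch is named by a control of its own stage, so stage and batch cannot be told apart in this difference. At stage 10.5 admp.S was at 7.05, 3.94 and 9.44 RPKM in Cer embryos, against 20.7, 21.6 and 33.3 RPKM in controls, and it fell by 1.86 (SE 0.26; limma adjusted p = 0.00069). At stage 9 it was at 36.3, 17.3 and 27.9 RPKM in Cer embryos, against 17.9, 7.93 and 19.9 RPKM in controls, above the control in 3 of 3 batches, with a difference of 0.85 ± 0.26 that was not called (adjusted p = 0.46). The effect at stage 10.5 minus that at stage 9 was −2.71 ± 0.37 for admp.S (adjusted p = 0.00011). That difference was called under every alternative run, with values between −2.96 and −2.48.

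The copy admp.L followed with a smaller and less secure difference. It was at 7.96, 5.4 and 7.24 RPKM in Cer embryos of stage 10.5, against 12.1, 13.1 and 20 RPKM in controls (−1.06 ± 0.24; adjusted p = 0.024), and at 32.8, 21 and 27.1 RPKM in Cer embryos of stage 9, against 17.3, 10.9 and 20.6 RPKM in controls (0.74 ± 0.32; adjusted p = 0.95). Within both stages its Cer and control libraries did not overlap. The stage 10.5 call was lost without control 5 (adjusted p = 0.11), control 6 (0.14), Cer library 2 (0.12) or Cer library 3 (0.17). The difference between stages was −1.79 ± 0.40 (adjusted p = 0.019), and its adjusted p was 0.0538 without control 5 of stage 10.5, 0.057 without control 6, 0.0537 without Cer library 2 and 0.074 without Cer library 3. It was 0.059 without control 1 of stage 9, 0.15 without control 2, 0.13 without Cer library 1, 0.07 without Cer library 2 and 0.057 without Cer library 3.

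The same Cer embryos had more admp2.L at stage 10.5, at 28.4, 28.8 and 47.8 RPKM, against 21.4, 14.7 and 30 RPKM in controls. It was higher in 3 of 3 batches with overlap between the groups, by 0.67 ± 0.17 (adjusted p = 0.0491). Leaving out any 1 control or Cer library other than Cer library 1 ended that call, with adjusted p of 0.067 without control 1, 0.066 without control 2, 0.071 without control 3, 0.11 without control 4, 0.14 without control 5, 0.25 without control 6, 0.3 without Cer library 2 and 0.12 without Cer library 3. The level of bmp4.S was 18.5, 26.9 and 37.7 RPKM in Cer embryos, against 17.1, 18.2 and 19.2 RPKM in controls (0.54 ± 0.18; adjusted p = 0.16, and 0.024 without Cer library 1). For bmp2.L it was 2.96, 2.66 and 2.03 RPKM in Cer embryos, against 4.06, 3.14 and 3.44 RPKM in controls, without overlap, and the difference of −0.41 ± 0.11 came to the edge of the threshold without passing it (adjusted p = 0.05 after rounding, and 0.029 without Cer library 2). The BMP7-matched row Xelaev18018155m differed by 0.07 ± 0.08 (adjusted p = 0.77).

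In all, 1 of 9 ligand rows was called higher in Cer embryos at stage 10.5, against 1.65% of all rows, and 2 lower, against 2.9%. At stage 9 limma called 0 higher, against 0.189%, and 0 lower, against 0.21%, with 2 ligand rows among the 939 of 18530 at an unadjusted p under 0.05, and voom called 0 of the 9. The stage difference was called for 2 of 9 rows, against 1.26% of rows. Cer and Wnt8 libraries share their controls. Organizer markers were called lower in 9 of 11 rows in Cer embryos of stage 10.5 and summed to 146.6 to 197.8 RPKM, against 403.1 to 553.9 RPKM over all controls. The endoderm list summed to 68.9 to 203.9 RPKM in Cer embryos, against 490.8 to 807.1 RPKM in controls, and the mesoderm list to 288.2 to 350.2 RPKM, against 664.1 to 1005.1 RPKM in controls. Ventral rows were called lower in 6 of 6, epidermal rows in 8 of 14, endoderm rows in 12 of 12 and mesoderm rows in 7 of 11. The epidermal sums, at 844.4 to 921.7 RPKM, stayed within the 740.1 to 1075.9 RPKM of controls. At stage 9, 3 of 6 ventral rows were lower, with sums of 50.7 to 87.3 RPKM in Cer embryos, against 70 to 154.3 RPKM in controls, as were 3 of 9 endoderm rows. None of the 11 organizer rows was called at stage 9, and their sum was 68.3 to 169.5 RPKM in Cer embryos, against 34.5 to 160.3 RPKM in controls. The part of these tissues in the ligand differences was not tested.

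**Figure D4:**
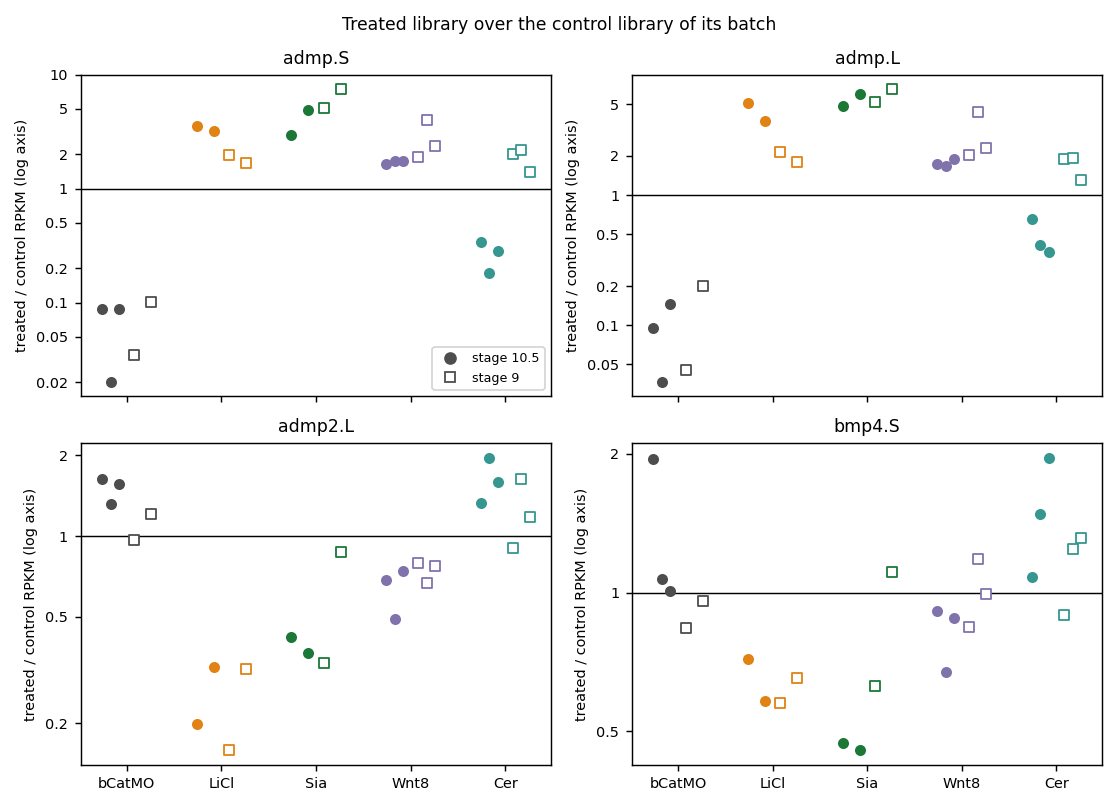
Ratio of the treated to the same-batch control RPKM, on a log axis, for admp.S, admp.L, admp2.L and bmp4.S, with circles for stage 10.5 and squares for stage 9. For admp.S the Cer ratios are 0.182 to 0.34 at stage 10.5 and 1.4 to 2.18 at stage 9, whereas for bCatMO they lie below 1 and for Sia above 1 at both stages.

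Within the ADMP pair, the ratio of the copies is given by group as a description. At stage 10.5 the .S to .L ratio of RPKM had a median of 1.6 in dorsal explants (1.43 to 2.05) and 0.986 in ventral explants (0.869 to 1.79). In Cer embryos it was 0.887 (0.73 to 1.3), against 1.69 (1.61 to 2.19) in controls, and the Cer and control ranges did not overlap. It was 1.44 (1.37 to 1.5) in LiCl and 1.33 (1.33 to 1.33) in Sia embryos, and these ranges also lay below that of controls. In bCatMO embryos it was 1.2 (0.966 to 2) and in Wnt8-labelled libraries 1.61 (1.54 to 1.73), both overlapping with controls. At stage 9 the median over all 17 libraries was 0.965 (0.443 to 1.11). The ratio was not tested. In the low groups it rests on few reads, down to 44 for admp.L in bCatMO embryos of stage 10.5 and 54 for admp.S in those of stage 9. The corresponding bmp4 ratio had a median of 1.83 at stage 10.5 and 2.12 at stage 9, and the bmp2 ratio 1.52 at stage 10.5 and 2.12 at stage 9.

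**Figure D5:**
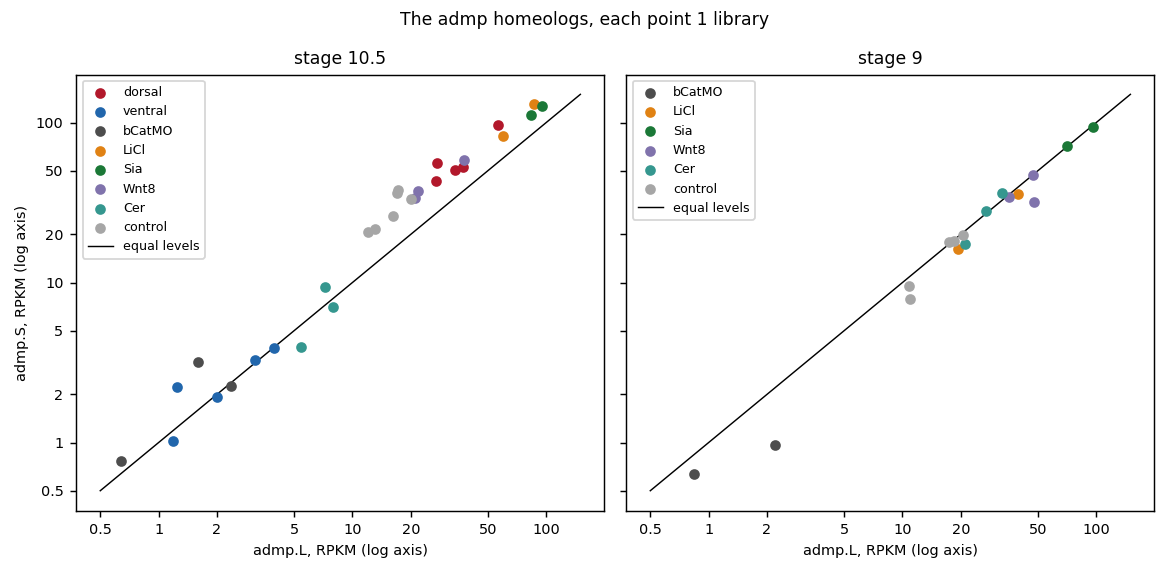
RPKM of admp.S against admp.L on log axes, 1 point per library, with stage 10.5 and stage 9 in separate panels and a line of equal level. At stage 10.5 most points lie on the admp.S side of the line. Median ratios there are 0.887 in Cer, 1.33 in Sia, 1.44 in LiCl and 1.69 in control libraries. At stage 9 the ratios are 0.443 to 1.11 around the line.

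The likeness of patterns was measured as Pearson's r of log2(RPKM + 0.5) over the 29 stage 10.5 libraries, which share batches and controls, among 19461 rows. The rows most like admp.S were admp.L (r = 0.986), the organizer homeobox gene goosecoid as gsc.S (0.971) and gsc.L (0.970), and the chordin-matched rows Xelaev18029538m (0.969) and Xelaev18027421m (0.968). Those most like admp2.L were bmp4.S (0.807), the lipid transporter gene mfsd2a.L (0.768), Xelaev18023657m, matched to PDGFB (0.761), Xelaev18001776m, matched to HESX1 (0.757), and mycl.L (0.746). For bmp4.S they were bmp4.L (0.890), Xelaev18019732m, matched to the hyaluronan synthase HAS1 (0.873), Xelaev18015058m with no human match (0.816), the apelin gene apln.L (0.813) and Xelaev18009796m, matched to PTBP1 (0.813). Some of these rows were low. Xelaev18015058m averaged 0.547 RPKM, near the 0.5 added before the log. The means were 1.96 RPKM for mfsd2a.L, 2.59 for Xelaev18023657m, 3.25 for Xelaev18001776m and 3.36 for apln.L. The r of admp.S was −0.600 with admp2.L and −0.658 with bmp4.S. These values describe the set of libraries as a whole.

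The extracellular antagonists and modulators of BMP, 19 tested rows of 31 at stage 10.5, moved in many comparisons. In dorsal explants 8 were called higher and 4 lower, among them the Chordin row Xelaev18027421m, at 87.2 RPKM in dorsal explants and 0.786 RPKM in ventral explants (6.26 ± 0.38; adjusted p = 3.7e-06). The shares of all rows in the explants were 0.547% higher and 0.13% lower. In bCatMO embryos 2 were higher and 8 lower, against 1.98% and 5.17% of all rows. In LiCl embryos the counts were 8 and 2, against 3.8% and 10.4%, and in Sia embryos 9 and 4, against 2.34% and 1.83%. In Wnt8-labelled libraries they were 2 and 4, against 0.196% and 0.265%, and in Cer embryos 1 and 10, against 1.65% and 2.9%. The 1 higher in Cer embryos was cer1.S, the supplied mRNA. Noggin, as nog.L, was at 47.7 RPKM in LiCl embryos, against 10.5 RPKM in controls (2.10 ± 0.14; adjusted p = 2.1e-05), and at 53.4 RPKM in Sia embryos, against 9.59 RPKM in controls (2.43 ± 0.14; adjusted p = 5.8e-07). At stage 9, of 16 rows, 6 were lower in bCatMO embryos, against 0.513% of all rows, and 2 higher in Sia embryos, against 0.264%. In Cer embryos 1 was higher and 3 lower, against 0.189% and 0.21%. With LiCl 0 were called, against 0.0971% higher and 0.351% lower, and 0 in Wnt8-labelled embryos, against 0.103% and 0.0054%.

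Receptor and Smad rows gave few calls, given here beside the share of all rows called. Of 17 rows tested in the explants none was called in the unpaired fit, against 0.547% higher and 0.13% lower. In whole embryos of stage 10.5, 18 rows were tested. With bCatMO 1 was higher and 3 lower, against 1.98% and 5.17%. With LiCl the calls were 1 and 5, against 3.8% and 10.4%, and with Sia 1 and 1, against 2.34% and 1.83%. In Wnt8-labelled libraries they were 1 and 0, against 0.196% and 0.265%, and with Cer 0 and 1, against 1.65% and 2.9%. Such small counts were not compared between treatments. The inhibitory Smad gene smad6.L was at 3.47 RPKM in LiCl embryos, against 6.24 RPKM in controls (−0.87 ± 0.15; adjusted p = 0.0037), at 3.76 RPKM in Sia embryos, against 6.65 RPKM in controls (−0.62 ± 0.15; adjusted p = 0.036), and at 7.81 RPKM in Cer embryos, against 11.7 RPKM in controls (−0.55 ± 0.13; adjusted p = 0.027). The type I receptor gene acvr1.L was the row called higher in Sia embryos, at 11.8 RPKM, against 8.88 RPKM in controls (0.37 ± 0.08; adjusted p = 0.026). At stage 9 none of 21 rows was called in any treatment, where the largest share over all rows was 0.513%, for lower with bCatMO.

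Genes known as BMP targets, 33 tested rows of 34, were called 0 higher and 9 lower in dorsal explants, against 0.547% and 0.13% of all rows. The secreted inhibitor sizzled, itself induced by BMP and counted among antagonists and targets alike, stood as szl.L at 5.44 RPKM in dorsal explants and 86.6 RPKM in ventral explants (−3.93 ± 0.52; adjusted p = 0.0022), and the homeobox gene msx1.S at 5.64 RPKM in dorsal explants and 34.9 RPKM in ventral explants (−2.36 ± 0.35; adjusted p = 0.0063). In whole embryos of stage 10.5 the calls were 4 higher and 2 lower with bCatMO, against 1.98% and 5.17% of all rows. With LiCl they were 6 and 7, against 3.8% and 10.4%, and with Sia 3 and 9, against 2.34% and 1.83%. In Wnt8-labelled libraries they were 0 and 12, against 0.196% and 0.265%, and with Cer 3 and 19, against 1.65% and 2.9%. In Cer embryos szl.L was at 8.86 RPKM, against 55.7 RPKM in controls (−2.69 ± 0.31; adjusted p = 0.00018), and a GATA3-matched row, Xelaev18020919m, at 0.749 RPKM, against 8.67 RPKM in controls (−2.92 ± 0.14; adjusted p = 1.8e-07). The Cer median of the target list was −1.32, against 0.00 over all rows. A HES1-matched row, Xelaev18019219m, moved against the list, at 109.2 RPKM in Cer embryos and 11.5 RPKM in controls (3.23 ± 0.25; adjusted p = 7.1e-06). At stage 9, of 24 rows, 7 were lower in Cer embryos, against 0.21% of all rows, and none was called in the other treatments.

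Other BMP and GDF ligands were mostly below the level filter: of 27 rows, 3 were tested in the explants and 4 in whole embryos. With LiCl at stage 10.5, bmp15.L and gdf9.L, both known as oocyte ligands, were lower, in a comparison with 10.4% of all rows lower. The row bmp15.L was at 0.255 RPKM, against 0.601 RPKM in controls (−0.56 ± 0.15, limma adjusted p = 0.025), near the 0.5 added before the log. For gdf9.L the levels were 26.7 RPKM, against 31.3 RPKM in controls (−0.20 ± 0.06, limma adjusted p = 0.031). Neither call was followed under other scaling. With Cer, gdf3.1 was at 93.1 RPKM, against 134.8 RPKM in controls (−0.55 ± 0.09; adjusted p = 0.0025). No other call was made on this list at either stage. The authors' deposited signature table of 123 rows holds 3 of the 9 ligand rows, admp.S, admp.L and bmp2.L, and since it was chosen on these samples it adds no independent evidence.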

How the data were processed

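RNA was sequenced by the submitters as 100-bp single-end reads from poly(A)-selected libraries, per the labels' protocols. Values were deposited as RPKM per gene, per the file headers, in 1 table for stage 10.5 and 1 for stage 9. The submitters' processing notes name TopHat2 2.09 and DESeq with no stated role; genome build, annotation, counter and strand use were not given in the sources used here. Of each file, 1 average column was not used and 1 emptied line was skipped, and 10 rows with repeated identifiers, all at 0, were dropped from stage 10.5. The LiCl column numbered 3 was taken as LiCl replicate 2, whose batch label names control 3. Whole reads were recovered from the RPKM steps for 100% of the 34080 rows (stage 10.5) and 30836 rows (stage 9) above 0 in at least 5 libraries, within 0.005 of a read; they served for depth and for an alternative count test (limma voom).

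The main test was limma 3.58.1 (under R 4.3.3; tables and plots used pandas 2.3.3, numpy 2.4.6 and matplotlib 3.10.9 under Python 3.11.15) with trend on log2(RPKM + 0.5), two-sided, Benjamini-Hochberg adjusted over all rows with at least 1 RPKM in at least 2 libraries of the fit, called at 0.05. Explants had a fit of their own with 8 residual degrees of freedom. Whole embryos of a stage shared 1 fit with group and batch (8 residual degrees of freedom at stage 10.5, 7 at stage 9). Stage differences were tested over 17746 rows with Satterthwaite degrees of freedom. No label used here links a stage 9 batch to a stage 10.5 batch, so those tests cannot tell stage and batch apart. The fits were also run on simulated reads with independent scatter between libraries and no batch or pair effect. That run could not test the batch or pair blocks, and no result here rests on it. The labels do not pair the explants by number. Same-numbered explants nevertheless correlated in their deviations from the group means at r = 0.901, 0.861, 0.894, 0.54 and 0.831 over 18448 rows. The pair-blocked value is therefore given beside the ligand results it changes. Explant results for the marker and pathway lists and for pnhd come from the unpaired fit only. The 9 ligand rows and the pathway and marker lists were chosen with earlier results of these data known. Every ligand row is reported; of each list the text draws on at most 3 called rows per comparison with the largest change, and likeness is given for the 5 closest rows to admp.S, admp2.L and bmp4.S. RefSeq's Xenopus_laevis_v10.1 gene table was used for gene neighbours only. Alternatives were other pseudocounts, no filter, size factors, voom, the block reversed, only the compared libraries, and each library left out. The fits on only the compared libraries held 2 or 3 libraries a group, too few to estimate the spread well alone.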

Additional observations from a re-analysis of the deposited data

Results flagged for a closer look

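A single control library stood apart for BMP4. Among the 6 stage 10.5 controls, replicate 1 had 4.65 RPKM of bmp4.L, against 9.07 to 11.9 RPKM in the others, and 6.86 RPKM of bmp4.S, against 17.1 to 25.9 RPKM in the others. These were 2 flags in 36 sets of 1 ligand row in 1 group, each tested for a library far from the rest. Both flags came from the same library and from copies of 1 gene. Chance alone flags about 1 in 20, so 2 flags in 36 do not stand out from chance. The bCatMO library of the same batch, at 7.06 RPKM of bmp4.L and 13.4 RPKM of bmp4.S, and the LiCl library, at 4.14 RPKM of bmp4.L and 4.93 RPKM of bmp4.S, were also the lowest of their groups. Those groups held only 3 bCatMO and 2 LiCl libraries.

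The effect of Cerberus mRNA differed between stages for both ADMP copies, by the test of the difference itself. That test set the difference of the limma effects against their standard errors, with Satterthwaite degrees of freedom. The stage 10.5 effect minus the stage 9 effect was −2.71 ± 0.37 for admp.S (adjusted p = 0.00011) and −1.79 ± 0.40 for admp.L (adjusted p = 0.019). The call was kept in 25 of 25 alternatives for admp.S but in only 14 of 25 for admp.L. The Cer library was below its control in 3 of 3 batches at stage 10.5 and above it in 3 of 3 at stage 9, where neither copy was called. Stage and batch cannot be told apart in these differences.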

How the results depend on the processing

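The alternatives were counted only for a ligand row and comparison called in at least 1 setting, so effects never called are left out. No direction reversed among these 778 values: 685 stayed on their side of the threshold, 62 lost a call and 31 gained one. Some alternatives left out a control of another batch, which need not move the estimate. For admp.L in bCatMO embryos of stage 10.5 it stayed at −3.18 without control 4, 5 or 6. With the pair of explants as a replicate block, 6 ligand rows were called in place of 2. Without the batch as a replicate block, the calls were 2 for LiCl and 2 for Sia at stage 10.5 (main 4 and 6) and 0 for LiCl at stage 9 (main 1). Voom called 2 rows in Wnt8-labelled libraries at stage 10.5 and 2 at stage 9 (main 0 at both), and at stage 10.5 it called 6 for LiCl and 5 for bCatMO (main 4 and 4), as did a fit on the compared libraries only. That fit also called 2 for Wnt8 at stage 10.5 and 5 for LiCl at stage 9, and 3 LiCl stage differences (main 0). Calls over all rows moved as well. LiCl at stage 9 had 170 rows higher and 502 lower of 16940 on the compared libraries, against 18 and 65 in the main fit. For bCatMO at stage 10.5 the compared libraries gave 84 and 239 of 17543, against 372 and 974. Voom gave 836 and 2075 for LiCl at stage 10.5, against 715 and 1953. The ligand counts were not tested against these shares. For Cer at stage 10.5 (main 3), pseudocount 0.1 and no filter each left 1, and each left 1 of 2 Cer stage differences. At stage 9, no filter left 0 for LiCl and 1 for Sia (main 2), and size factors gave 2 for LiCl. Leaving out 1 library gave 2 to 5 calls for LiCl, 3 to 6 for Sia and 1 to 4 for Cer at stage 10.5, 1 to 2 for bCatMO, 0 to 1 for LiCl and 0 to 2 for Sia at stage 9, and 1 to 2 Cer stage differences. Without the batch of control 4, an alternative chosen after seeing the data because of its stage 10 label, Cer had 2 calls and Wnt8 0. The batch of LiCl library 1, a library also headed stage 10, was not left out as a whole. Few rows pass at stage 9, where treated groups hold 2 or 3 libraries, so a missing call there does not show that a ligand was unaffected. Group size was similar at stage 10.5, where more rows passed. Sia, with 2 libraries at each stage, had 440 rows higher and 344 lower at stage 10.5, and 49 and 3 at stage 9. The cause of these shifts was not tested.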

Other observations

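In RefSeq's Xenopus_laevis_v10.1 gene table, pnhd, which encodes the secreted protein Pinhead, lies next to admp on both chromosome copies. Its values are given beside those of admp, with no test of the difference between the 2 genes. In the explants, pnhd.S averaged 37.9 ± 20.4 RPKM in dorsal explants and 45.3 ± 22.8 RPKM in ventral explants (SD, n = 5 each; log2 difference −0.26 ± 0.36, limma adjusted p = 1), and pnhd.L differed by −0.34 ± 0.27 (adjusted p = 1). In Sia embryos of stage 10.5, where both admp copies rose, pnhd.S was at 12.2 ± 0.002 RPKM, against 53 ± 12.9 RPKM in controls (SD, n = 2 each; −1.96 ± 0.20, adjusted p = 6.3e-05), and pnhd.L fell by 1.59 (SE 0.13; adjusted p = 1.2e-05). In Cer embryos of stage 10.5 pnhd.S fell by 1.95 (SE 0.17; adjusted p = 1.8e-05) and pnhd.L by 1.44 (SE 0.11; adjusted p = 8.2e-06). In bCatMO embryos pnhd.S differed by −0.20 ± 0.17 (adjusted p = 0.54) and pnhd.L by −0.21 ± 0.11 (adjusted p = 0.32). In LiCl embryos pnhd.S fell by 0.81 (SE 0.20; adjusted p = 0.019), and pnhd.L differed by −0.38 ± 0.13 (adjusted p = 0.078). In libraries labelled Wnt8 pnhd.L fell by 0.66 (SE 0.11; adjusted p = 0.031), and pnhd.S differed by −0.53 ± 0.17 (adjusted p = 0.46). No pnhd row was called in any treatment at stage 9. These genes were looked at after the values of admp were known.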
